A study of Homo sapiens with 12 samples.

Results

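The data concern 10 genes of the Notch pathway in human pancreatic cancer cells that were sorted by the monoclonal antibody GCTM-5. The genes were taken by symbol from the deposited expression table, and all 10 were found among its 23346 genes. They were the receptors NOTCH1, NOTCH2 and NOTCH3, the ligands JAG1, JAG2, DLL1 and DLL4, and the target genes HES1, HEY1 and HES4. The cells were SW1990 and CFPAC-1, established human pancreatic adenocarcinoma lines. Each line was sorted by flow cytometry into strongly GCTM-5 positive cells and GCTM-5 negative cells, with 3 samples of each population and 12 samples in all. The 4 groups were therefore SW1990 negative, SW1990 positive, CFPAC-1 negative and CFPAC-1 positive. No group had a genetic change or drug treatment named in its labels, and all 12 samples shared the antibody staining and the sort. Each line stands for 1 tumour, and by the study's methods the 3 samples of a group came from triplicate sorts, with nothing said there or in the labels of separate cultures. The p-values below measure only the spread between these samples, which may be technical, and a difference between the lines is a difference between 2 lines.

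Notch receptors are proteins of the cell surface that are activated by ligands on a neighbouring cell. Ligand binding lets proteases cut the receptor, and the freed intracellular part enters the nucleus, joins the DNA-binding protein RBPJ and switches on target genes. Many of these targets encode repressors of the HES and HEY families. In the developing pancreas the pathway holds progenitors in an undifferentiated state and takes part in the choice between ductal, acinar and endocrine fates. Activation occurs at the level of the protein, so RNA of a receptor or ligand gives its supply and not its activity.

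Values are RPKM, read counts normalized for gene length and for library size, so they may be compared between genes. Positive and negative cells were compared with limma on log2(RPKM + 0.1), with Benjamini-Hochberg adjustment over the 16236 genes fitted, and a gene was called at an adjusted p under 0.05. Changes below are log2 differences on that scale, which understates the change of low genes. The libraries held from 9969697 to 26159330 reads. All 10 genes passed the filter on low values, and DLL4 was the lowest of them, with 7 to 45 reads in a sample. In bulk samples, fewer cells that express a gene and less RNA in each cell cannot be told apart.

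One library stood apart. CFPAC-1 positive replicate 3 had the lowest read total, and its genes with a transcript GC content of at least 65% lay above the other samples of its group by a median of 0.541 on the log2 scale. In the other 11 libraries this median was between -0.344 and 0.163. Results that rest on it are given with and without it. As a check of the tissue label, the summed level of 12 epithelial markers was between 1719 and 9370 RPKM in every sample. Of 12 epithelial markers, 11 rose in SW1990 positive cells and none fell, with a median change of 2.35. Of 14 mesenchymal markers, 11 were fitted, and of these 8 fell and none rose in the same cells. The summed level of all 14 was between 1230 and 1411 RPKM in negative cells and between 221 and 408 RPKM in positive cells. In CFPAC-1 the epithelial list had 5 markers higher and 2 lower, and the mesenchymal list had 2 higher and 3 lower. Over all genes, 28.2% were called in SW1990 (16.9% lower) and 36.5% in CFPAC-1 (22.3% higher and 14.2% lower).

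In SW1990, 3 of the 10 genes were lower in GCTM-5 positive cells and none was called higher, against 28.2% of all genes called in this comparison. These 3 were HEY1, NOTCH1 and NOTCH2, and 16.9% of all genes were called lower. Without CFPAC-1 positive replicate 3, HES4 was called higher in SW1990 (0.88, limma adjusted p = 0.0199), and 4 of the 10 genes were called. In CFPAC-1, JAG1, JAG2 and HES4 rose and NOTCH2 and HES1 fell, 5 of 10 genes against 36.5% of all genes (22.3% called higher and 14.2% called lower). The changes of the 2 lines differed for 4 genes, NOTCH1, JAG1, JAG2 and HEY1, against 26.9% of all genes. All 4 differences were negative, against 17.8% of all genes called in that direction. These shares of 3, 5 and 4 in 10 are near the background, so it is the identity and size of the changes that are described below. The median change over the 10 genes was -0.19 in SW1990 and 0.02 in CFPAC-1, beside -0.04 and 0.05 over all genes.

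**Figure D1:**
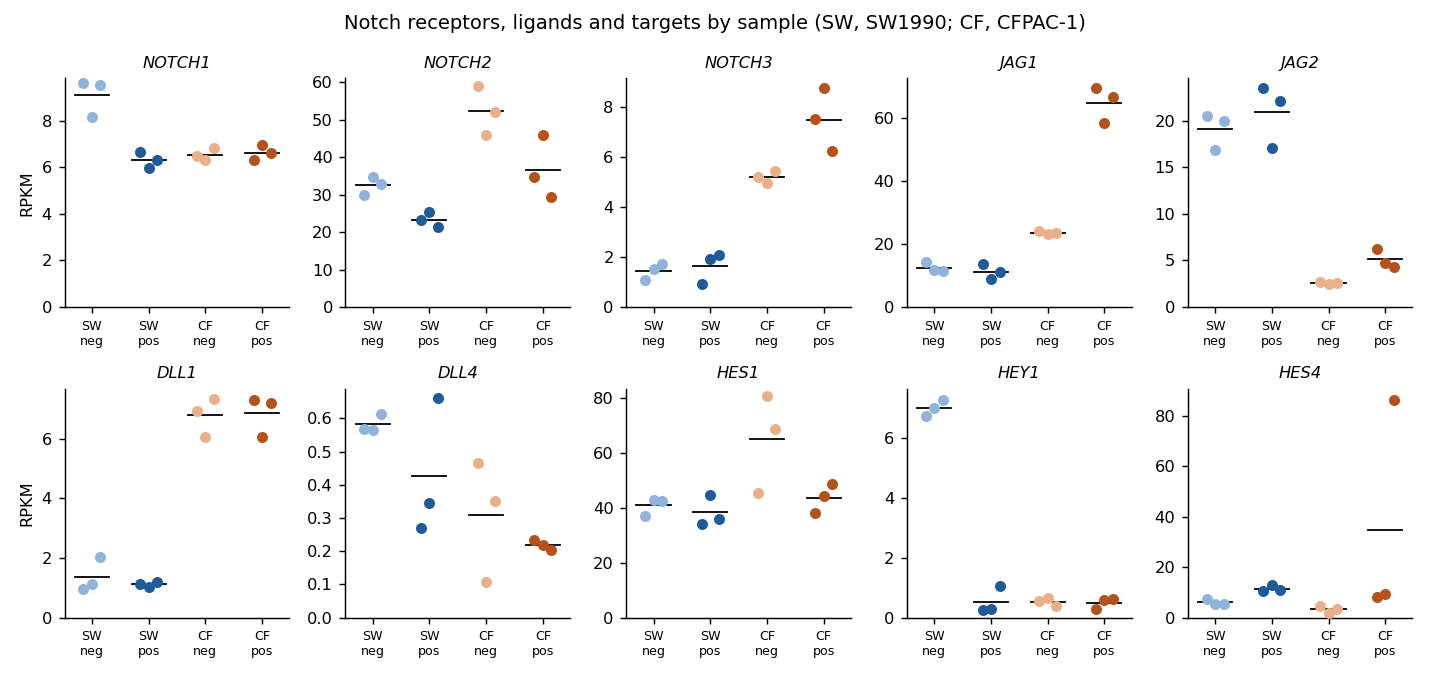
RPKM of the 10 genes in each of the 12 samples, with a linear axis from 0 for each gene; points are samples and lines are group means (n = 3). HEY1 was high only in the 3 SW1990 negative samples (6.76 to 7.29 RPKM), JAG1 was highest in the 3 CFPAC-1 positive samples (58.3 to 69.5 RPKM), and HES4 reached 86.4 RPKM in 1 CFPAC-1 positive sample.

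NOTCH2 was the most abundant receptor in all 12 samples. It held 75.4% ± 2.44 (SD, n = 3) of the summed RPKM of the 3 receptors in SW1990 negative cells and 81.6% ± 1.73 in CFPAC-1 negative cells. NOTCH2 was 29.9, 34.8 and 32.8 RPKM in SW1990 negative samples and 23.3, 25.4 and 21.4 RPKM in SW1990 positive samples. The groups did not overlap, and NOTCH2 fell by 0.48 on the log2 scale (SE 0.15, adjusted p = 0.0331 by limma). In CFPAC-1 it was 59.1, 45.9 and 52.0 RPKM in negative samples and 34.8, 45.9 and 29.3 RPKM in positive samples. Here the highest positive sample reached the lowest negative one, and NOTCH2 fell by 0.53 (SE 0.15, limma adjusted p = 0.0167). The difference between the changes in the 2 lines was 0.05, with a 95% interval from -0.41 to 0.52. Both calls were near the threshold. The SW1990 call was lost without negative replicate 2 or 3 or positive replicate 1 or 3, with limma adjusted p between 0.0753 and 0.116, and the CFPAC-1 call without negative replicate 1 or positive replicate 1 or 3, with adjusted p between 0.0519 and 0.0683. Over all alternatives the adjusted p ranged from 0.00977 to 0.116 in SW1990 and from 0.00218 to 0.0815 in CFPAC-1. NOTCH2 lies on chromosome 1 (GRCh37, 120454176 to 120643366, minus strand) and has a near-identical partial copy, NOTCH2NL, with which reads may have been shared.

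NOTCH1 was 9.63, 8.15 and 9.52 RPKM in SW1990 negative samples. In SW1990 positive samples it was 6.65, 5.96 and 6.29 RPKM. The groups did not overlap, and NOTCH1 fell by 0.52 (SE 0.10, limma adjusted p = 0.00234). In CFPAC-1 NOTCH1 was 6.47, 6.32 and 6.81 RPKM in negative and 6.31, 6.95 and 6.63 RPKM in positive samples. These overlapped, and the change was 0.02 with a 95% interval from -0.20 to 0.24. Its sign turned when samples were centred on their median (-0.08) or quantile normalized (-0.08). The difference between the lines was -0.54 (SE 0.14, limma adjusted p = 0.0166). It was no longer called with those 2 scalings, at adjusted p = 0.0697 and 0.0658, within a range of 0.00867 to 0.0697 over the alternatives. In RPKM as deposited, SW1990 negative cells stood above the other 3 groups, which overlapped in order from SW1990 positive to CFPAC-1 negative to CFPAC-1 positive. Once the trend with GC content was removed, the difference between SW1990 and CFPAC-1 negative cells was -0.03 (limma adjusted p = 0.852, in a range of 0.000382 to 0.852 over the alternatives).

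NOTCH3 had the lowest mean of these 3 receptors in SW1990, at 1.09, 1.53 and 1.72 RPKM in negative samples and 0.920, 1.93 and 2.08 RPKM in positive samples. These groups overlapped (change 0.12, 95% interval -0.47 to 0.70). CFPAC-1 samples stood at 5.17, 4.95 and 5.44 RPKM in negative samples and 7.50, 8.74 and 6.23 RPKM in positive samples. All positive samples were above all negative ones, but the change of 0.51 was not called (SE 0.27, limma adjusted p = 0.159). It was called with only the samples of that line (adjusted p = 0.0455), with voom on recovered reads (0.0365) and without SW1990 positive replicate 1 (0.0463), in a range of 0.0365 to 0.346 over the alternatives. As a share of the 3 receptors, NOTCH3 was 8.14% ± 0.729 in CFPAC-1 negative cells and 14.8% ± 0.627 in CFPAC-1 positive cells (SD, n = 3 each). The summed receptor level was 64.1 ± 6.79 and 50.8 ± 9.92 RPKM in these groups, and 43.0 ± 2.11 and 31.3 ± 1.78 RPKM in SW1990 negative and positive cells.

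JAG1, a ligand of the Jagged class, showed the clearest change of the ligands. In CFPAC-1 it was 24.0, 23.0 and 23.4 RPKM in negative samples and 69.5, 58.3 and 66.7 RPKM in positive samples. The groups were far apart, the mean was 2.76-fold higher in positive cells, and the log2 change was 1.46 (SE 0.14, limma adjusted p = 4.12e-05). In SW1990 JAG1 was 14.2, 11.7 and 11.6 RPKM in negative and 13.7, 8.75 and 11.2 RPKM in positive samples. These groups overlapped, with a change of -0.17 (95% interval -0.49 to 0.14). The changes differed between the lines by -1.63 (SE 0.20, limma adjusted p = 0.000164). This difference and the CFPAC-1 change were called under every alternative tried. JAG1 lies on chromosome 20 (GRCh37, 10618332 to 10654647, minus strand).

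JAG2, the other Jagged ligand, was the main ligand RNA of SW1990 and a minor one of CFPAC-1. It was 20.5, 16.8 and 20.0 RPKM in SW1990 negative samples and 23.5, 17.0 and 22.1 RPKM in SW1990 positive samples. The groups overlapped (change 0.12, 95% interval -0.22 to 0.46). JAG2 in CFPAC-1 was 2.69, 2.49 and 2.63 RPKM in negative samples and 6.27, 4.71 and 4.35 RPKM in positive samples. JAG2 was thus 1.96-fold higher in CFPAC-1 positive cells by the means, and its log2 change was 0.93 (SE 0.16, limma adjusted p = 0.000917). The difference between the lines was -0.81 (SE 0.22, limma adjusted p = 0.018) and was called under every alternative tried. JAG2 lies on chromosome 14 (GRCh37, 105607319 to 105635161, minus strand).

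DLL1 and DLL4, ligands of the Delta-like class, were not called as changed with GCTM-5 in either line. DLL1 was 0.970, 1.13 and 2.03 RPKM in SW1990 negative samples and 1.12, 1.03 and 1.19 RPKM in SW1990 positive samples. DLL1 in CFPAC-1 was 6.92, 6.07 and 7.33 RPKM in negative and 7.30, 6.05 and 7.18 RPKM in positive samples. DLL1 separated the lines and not the sorted populations: its changes were -0.22 in SW1990 (95% interval -0.70 to 0.27) and 0.01 in CFPAC-1 (-0.47 to 0.50), and both signs turned under quantile normalization (0.01 and -0.10). DLL1 overlaps FAM120B on the opposite strand, and whether the counting used strand is not given in the sources used here. DLL4 was 0.565 to 0.612 and 0.271 to 0.660 RPKM in SW1990 negative and positive samples, and 0.107 to 0.466 and 0.205 to 0.235 RPKM in those of CFPAC-1. The groups overlapped in each line, and the changes of DLL4 were -0.45 in SW1990 (95% interval -1.24 to 0.35) and -0.23 in CFPAC-1 (-1.03 to 0.56).

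Taking the 4 ligands together, their summed level was 33.6 ± 3.04 RPKM in SW1990 negative, 33.6 ± 5.84 RPKM in SW1990 positive and 33.1 ± 1.27 RPKM in CFPAC-1 negative cells, against 77.0 ± 7.09 RPKM in CFPAC-1 positive cells (SD, n = 3 each). The 3 CFPAC-1 positive samples (69.3 to 83.3 RPKM) lay above all 9 others, which went no higher than 38.5 RPKM. The makeup of the sum differed by line. JAG2 held 56.9% ± 1.48 of it in SW1990 negative and 62.2% ± 1.08 in SW1990 positive cells. JAG1 held 70.8% ± 1.69 in CFPAC-1 negative and 84.2% ± 0.803 in CFPAC-1 positive cells, while the share of DLL1 was 20.4% ± 1.32 and 8.88% ± 0.241 in the same groups.

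**Figure D2:**
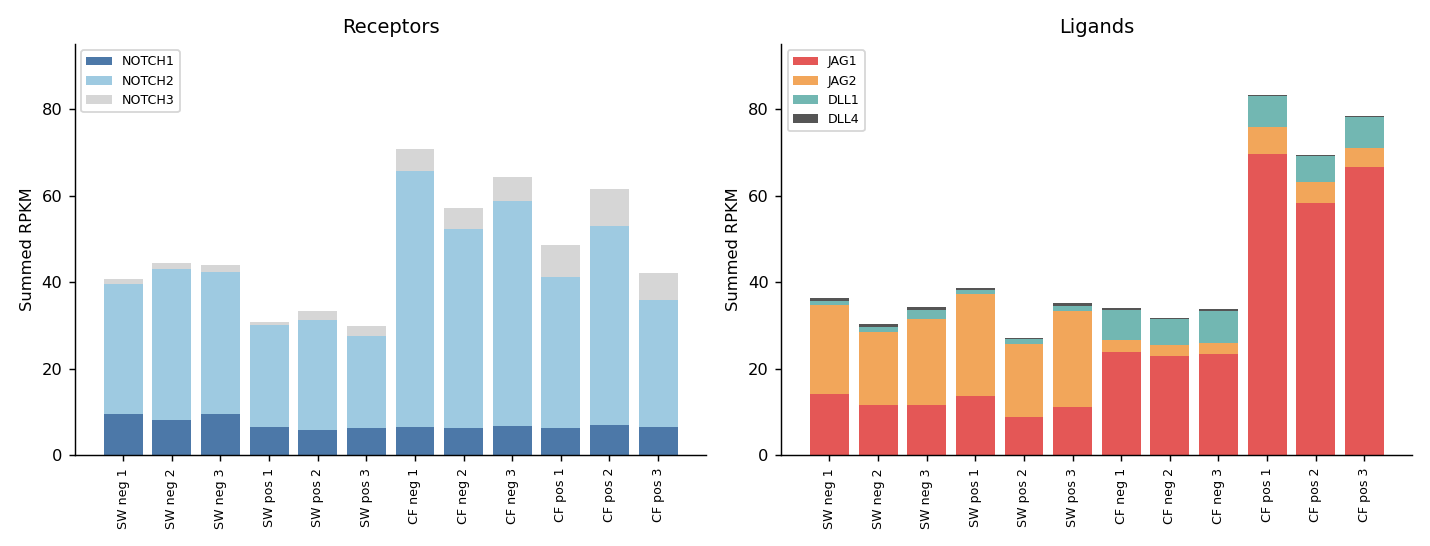
Summed RPKM of the 3 receptors (left) and the 4 ligands (right) in each sample, with 1 stacked bar for each sample and colours for the genes. NOTCH2 fills most of every receptor bar, JAG2 most of every SW1990 ligand bar and JAG1 most of every CFPAC-1 ligand bar, and the ligand sum is 69.3 to 83.3 RPKM in CFPAC-1 positive samples.

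The target genes differed in their calls, and they were not tested against each other. HEY1 fell in SW1990 positive cells. HES1 fell in CFPAC-1 positive cells, a call that was lost under several alternatives. HES4 rose in CFPAC-1 positive cells, and was called higher in both lines without CFPAC-1 positive replicate 3. The stretches of 250 bases before the starts of HES1 and HES4 are shown because these were the only members, of the 8 with a RefSeq promoter entry, that held the letters of the core sequence bound by RBPJ, GTGGGAA, and also GTGTGAA. DLL1 and HEY1 were not matched. The sequences are from RefSeq (GRCh38.p14) and are written 5′ to 3′ on the strand of the gene. Capitals mark GTGGGAA, a further TGGGAA in HES1, and TTCACAC, which is GTGTGAA on the other strand. HES1 is at chr3:194135898-194136147 (plus strand) and HES4 at chr1:1000098-1000347 (minus strand).
HES1: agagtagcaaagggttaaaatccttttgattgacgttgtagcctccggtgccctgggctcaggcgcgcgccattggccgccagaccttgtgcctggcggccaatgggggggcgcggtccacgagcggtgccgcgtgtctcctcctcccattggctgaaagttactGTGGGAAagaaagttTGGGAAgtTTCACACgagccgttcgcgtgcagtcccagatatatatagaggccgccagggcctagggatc
HES4: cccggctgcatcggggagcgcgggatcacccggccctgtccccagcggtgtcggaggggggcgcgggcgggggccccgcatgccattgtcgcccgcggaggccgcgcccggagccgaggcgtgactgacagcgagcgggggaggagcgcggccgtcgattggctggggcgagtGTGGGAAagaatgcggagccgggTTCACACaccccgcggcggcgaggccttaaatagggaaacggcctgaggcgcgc

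Both strands were searched, and each match of the longer core also holds a TGGGAA. The core GTGGGAA lies 85 to 79 bases before the start in HES1 and 77 to 71 bases before it in HES4, and GTGTGAA lies 62 to 56 and 54 to 48 bases before it. Of all 35116 promoter windows of this length, 5.43% held GTGGGAA, 2.48% held GTGTGAA and 0.188% held both. The 12 bases TGTGGGAAAGAA were taken as the longest stretch shared by these 2 windows, so that both hold it by choice. It was found in 6 of the 35116 windows, these 2 included. Of 82 windows of the other pathway genes, 5 held GTGGGAA, those of CTBP2, HES5, HEY2, HEYL and RBPJ. The letters were chosen with these 2 windows in view, and a match is a description and not evidence of binding.

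HES1, a repressor that holds back differentiation, was the most abundant of the 3 targets in 11 of 12 samples, and in CFPAC-1 positive replicate 3 it was below HES4. It was 37.3, 43.1 and 42.7 RPKM in SW1990 negative samples and 34.4, 44.8 and 36.1 RPKM in SW1990 positive samples. These groups overlapped, with a change of -0.10 (95% interval -0.50 to 0.30). For CFPAC-1 the values were 45.5, 81.1 and 68.7 RPKM in negative samples and 38.2, 44.4 and 48.8 RPKM in positive samples. The lowest negative sample lay within the positive ones, and HES1 fell by 0.54 (SE 0.18, limma adjusted p = 0.0392). The call was lost without any 1 of CFPAC-1 negative replicates 2 and 3, CFPAC-1 positive replicates 1 and 2, SW1990 negative replicate 3 and SW1990 positive replicate 3, with adjusted p from 0.0514 to 0.162, and without negative replicate 2 the change was -0.36. It was also lost with no filter on low values, without a variance trend and with the samples of CFPAC-1 alone (adjusted p = 0.128, in a range of 0.00313 to 0.162 over all alternatives). The difference between the lines was 0.44 and was not called (limma adjusted p = 0.242), except without CFPAC-1 negative replicate 1 (0.67, adjusted p = 0.0281, in a range of 0.0281 to 0.491).

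The level of a list of 10 genes that respond to cell dissociation moved with HES1 across the CFPAC-1 negative samples. Its summed level was 802, 2397 and 2039 RPKM in CFPAC-1 negative replicates 1 to 3 and 1099, 994 and 735 RPKM in positive replicates 1 to 3. In SW1990 it was between 741 and 895 RPKM in all 6 samples. The CFPAC-1 negative samples with the highest HES1 were thus those with the highest sum of this list. Of its 10 genes, 5 fell and none rose in CFPAC-1 positive cells, beside 14.2% and 22.3% of all genes. Across the CFPAC-1 positive samples the order was the reverse, with HES1 at 38.2, 44.4 and 48.8 RPKM in replicates 1 to 3. The part of this list in the HES1 result was not tested.

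HEY1, a repressor best known from blood vessel and heart development, had the largest change of the 10 genes. It was 6.76, 7.01 and 7.29 RPKM in SW1990 negative samples, with 297 to 376 reads in each. In SW1990 positive samples it was 0.246, 0.307 and 1.05 RPKM, with 11 to 43 reads. The groups were far apart, the mean was 13.1-fold lower in positive cells, and HEY1 fell by 3.70 on the log2 scale (SE 0.40, limma adjusted p = 2.95e-05). Without SW1990 positive replicate 3, the highest of the positive samples, the mean was 25.4-fold lower and the log2 change -4.25. CFPAC-1 samples had 0.557, 0.675 and 0.392 RPKM in negative and 0.282, 0.578 and 0.609 RPKM in positive samples. These overlapped with each other and with SW1990 positive cells, and the change was -0.15 (95% interval -1.03 to 0.73). The changes differed between the lines by -3.56 (SE 0.57, limma adjusted p = 0.000859). Both HEY1 calls held under every alternative tried.

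Since HEY1 is also a gene of blood vessels, endothelial markers are given beside it. Of 8 such markers, 6 were fitted, and in SW1990 positive cells 1 rose and 2 fell. Their summed level was between 17.8 and 21.6 RPKM in SW1990 negative and between 12.1 and 13.8 RPKM in SW1990 positive samples, and KDR was at 0 in all 3 SW1990 negative samples. One marker, CDH5, named here after its values were seen, was 14.17, 14.98 and 17.65 RPKM in SW1990 negative and 1.16, 1.21 and 1.63 RPKM in SW1990 positive samples. CDH5 held most of the sum in negative cells. The sum of the other 7 markers went the opposite way, from between 2.86 and 3.90 RPKM in SW1990 negative to between 10.97 and 12.5 RPKM in SW1990 positive samples. Not each of the 7 did so, as TEK was at 0 in all 3 SW1990 positive samples. The part of these markers, and of the epithelial and mesenchymal lists that also moved in SW1990, was not tested.

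HES4 was 7.53, 5.62 and 5.55 RPKM in SW1990 negative samples and 10.5, 13.0 and 11.02 RPKM in SW1990 positive samples. All positive samples were above all negative ones, but the change of 0.88 was not called when all groups shared 1 estimate of spread (SE 0.68, limma adjusted p = 0.385). HES4 in CFPAC-1 was 4.74, 2.07 and 3.28 RPKM in negative and 8.05, 9.37 and 86.4 RPKM in positive samples. The last value is that of the library that stood apart, and HES4 has the highest transcript GC content of the 10 genes, 73.9%. HES4 rose by 2.52 in CFPAC-1 (SE 0.68, limma adjusted p = 0.0134). Without CFPAC-1 positive replicate 3 it rose by 1.42 (adjusted p = 0.00295), and the change of 0.88 in SW1990 was then called as well (adjusted p = 0.0199). The CFPAC-1 call was lost without CFPAC-1 negative replicate 2 (change 2.22, adjusted p = 0.0551) and with the samples of that line alone (adjusted p = 0.101). Over all alternatives the adjusted p ranged from 0.012 to 0.557 in SW1990 and from 0.00295 to 0.101 in CFPAC-1. The difference between the lines was -1.64 and was not called (limma adjusted p = 0.235). Without CFPAC-1 positive replicate 3 this difference was -0.54 and was not called either (limma adjusted p = 0.305). ISG15, the neighbour of HES4 on chromosome 1 and an interferon-stimulated gene, named here after its values were seen, was 186, 214 and 482 RPKM in CFPAC-1 positive replicates 1 to 3 and between 173 and 226 RPKM in CFPAC-1 negative samples. In SW1990 it was between 947 and 1204 RPKM in all 6 samples, where HES4 was no higher than 13.0 RPKM. HES4 lies at 934342 to 935552 on chromosome 1 (GRCh37, minus strand).

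**Figure D3:**
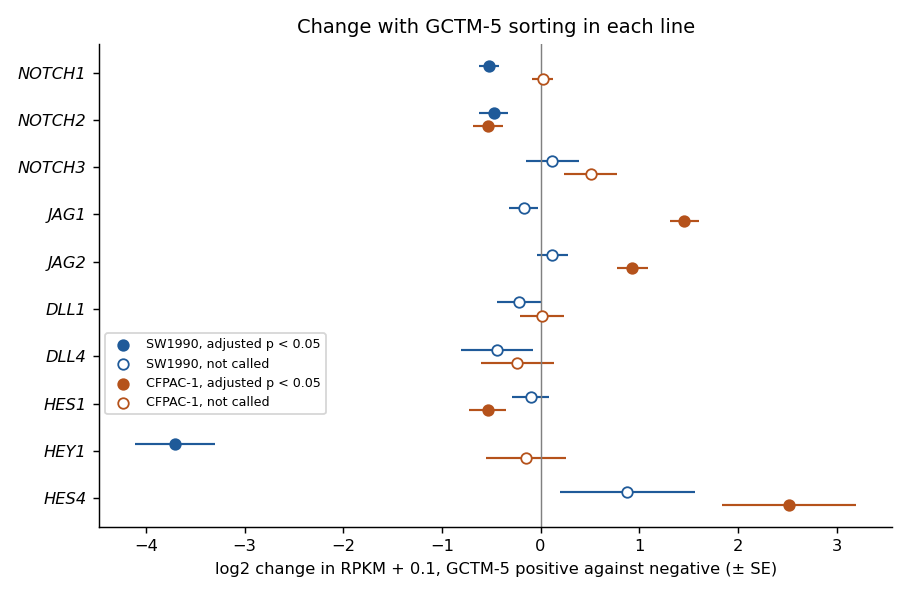
Change of each gene between GCTM-5 positive and negative cells in log2(RPKM + 0.1), with bars for the standard error of the limma fit (3 samples against 3); filled points were called at an adjusted p under 0.05. HEY1 lies at -3.70 in SW1990 and near 0 in CFPAC-1, JAG1 and JAG2 lie near 0 in SW1990 and at 1.46 and 0.93 in CFPAC-1, and NOTCH2 lies below 0 in both lines.

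Between the lines, negative cells differed for 8 of the 10 genes, against 68.9% of all genes, and positive cells for 5 of 10, against 62.3%. Both shares are again near the background. These comparisons share their samples with those above. JAG2 was higher in SW1990 than in CFPAC-1, by 2.82 in negative cells (SE 0.16, limma adjusted p = 1.61e-08) and by 2.01 in positive cells (SE 0.16, limma adjusted p = 4.38e-07). Lower in SW1990 were DLL1, with differences of -2.28 in negative and -2.51 in positive cells, NOTCH3 (-1.79 and -2.19), JAG1 (-0.91 and -2.54) and NOTCH2 (-0.68 and -0.63), all 8 with a limma adjusted p of 0.00316 or less. HEY1 was higher in SW1990 in negative cells, by 3.50 (SE 0.40, limma adjusted p = 8.94e-06), while in positive cells the difference was -0.06 (95% interval -0.94 to 0.82). HES1 was lower in SW1990 in negative cells (-0.63, limma adjusted p = 0.00918) and was not called in positive cells (-0.19, 95% interval -0.59 to 0.21).

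NOTCH1 was higher in SW1990 in negative cells by 0.47 (SE 0.10, limma adjusted p = 0.00139), the call that was lost with the GC trend removed. In positive cells NOTCH1 differed by -0.07 (95% interval -0.29 to 0.15), and by -0.54 with the GC trend removed (adjusted p = 0.00179). DLL4 was not called, at 0.86 in negative cells (limma adjusted p = 0.0534, in a range of 0.0195 to 0.247) and 0.65 in positive cells. HES4 differed by 0.93 in negative cells (adjusted p = 0.243, and 0.0061 without CFPAC-1 positive replicate 3, in a range of 0.0061 to 0.939) and by -0.71 in positive cells (adjusted p = 0.386), where it was 0.39 without that library (adjusted p = 0.241). With the GC trend removed the HES4 difference was -0.06 in negative cells (adjusted p = 0.939) and -1.66 in positive cells, where it was then called (adjusted p = 0.0267). As deposited, the median of all genes was 0.19 higher in SW1990 than in CFPAC-1 negative cells and -0.15 for the difference of changes, and within 0.01 of 0 when samples were centred on their median.

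The genes with the most similar patterns over the 12 samples were sought among 13267 genes with a mean of at least 1 RPKM, by the root mean square difference of log2(RPKM + 0.1) centred for each gene. This was NACC2 for NOTCH1 (0.101), UBL3 for NOTCH2 (0.119), HMGCS1 for NOTCH3 (0.263) and IL17RB for JAG1 (0.264). It was LOC100507424 for JAG2 (0.146), PCDH7 for DLL1 (0.210), ZNF394 for HES1 (0.151), KCNJ2 for HEY1 (0.511) and MIR3648 for HES4 (0.419). HEY1 had the least close neighbour. Among the 10 genes themselves, the closest pair was NOTCH2 and HES1 (0.354).

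A list of 64 other genes of the pathway was examined in the same way, of which 60 passed the filter on low values. DLK1 and HES3 were at 0 in every sample, and HES5 and HEY2 had at most 6 reads. In SW1990, 23 of the 60 were called, 7 higher and 16 lower in positive cells (38.3% against 28.2% of all genes). In CFPAC-1, 24 were called, 10 higher and 14 lower (40.0% against 36.5%). Their median changes were -0.14 and -0.20, against -0.04 and 0.05 over all genes. The changes of the 2 lines differed for 24 of the 60, against 26.9% of all genes. The SW1990 count was 15 without SW1990 negative replicate 3 or without SW1990 positive replicate 1. Genes named below were over 2-fold changed and called in at least 1 line, the 12 largest of 13. Counts for each part of the pathway are given as a description, beside the same 28.2% of all genes called in SW1990 and 36.5% in CFPAC-1. They are too small to be read as a result about a part.

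NEURL, now named NEURL1, encodes an E3 ubiquitin ligase that promotes endocytosis of Notch ligands. It was 10.95 to 12.88 RPKM in SW1990 negative and 4.59 to 5.55 RPKM in SW1990 positive samples, and fell by 1.22 (SE 0.18, limma adjusted p = 0.000276). In CFPAC-1 it was at 2 to 4 reads in negative and 11 to 36 reads in positive samples, and rose by 1.46 (SE 0.18, limma adjusted p = 0.000139). The changes thus went in opposite directions, with a difference of -2.69 (SE 0.25, limma adjusted p = 2.48e-05). Its relative NEURL1B was 6.05 to 7.12 RPKM in SW1990 negative and 2.39 to 3.63 RPKM in SW1990 positive samples, and fell by 1.16 (SE 0.20, limma adjusted p = 0.001). Of the 4 genes of ligand endocytosis, these 2 fell in SW1990 and 1 rose in CFPAC-1.

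Among the 5 genes of receptor glycosylation, 1 fell in SW1990, and 1 rose and 1 fell in CFPAC-1. The latter was MFNG, a Fringe enzyme that alters which ligands a receptor prefers. It was 5.52 to 6.01 RPKM in CFPAC-1 negative and 1.81 to 3.47 RPKM in CFPAC-1 positive samples, and fell by 1.24 (SE 0.26, limma adjusted p = 0.00313). Of 9 genes of receptor cleavage, 1 rose and 1 fell in SW1990, and 3 fell in CFPAC-1. APH1B, a subunit of the gamma-secretase that makes the last cut, was 3.78 to 4.54 RPKM in SW1990 negative and 0.835 to 1.03 RPKM in SW1990 positive samples. APH1B fell by 2.10 in SW1990 (SE 0.15, limma adjusted p = 9.26e-07) and by 0.40 in CFPAC-1 (SE 0.15, limma adjusted p = 0.0478), where it was 3.17 to 3.80 and 2.39 to 2.63 RPKM. The difference between these falls was -1.70 (limma adjusted p = 0.000134).

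Of 9 genes of the nuclear complex, 1 rose and 3 fell in SW1990, and 1 rose and 2 fell in CFPAC-1. KAT2B, a histone acetyltransferase that acts as a coactivator, was 3.94 to 4.26 RPKM in SW1990 negative and 1.02 to 1.06 RPKM in SW1990 positive samples. It fell by 1.88 in SW1990 (SE 0.18, limma adjusted p = 9.50e-06) and by 0.57 in CFPAC-1 (SE 0.18, limma adjusted p = 0.0247). Of 12 corepressor genes, 1 rose and 2 fell in SW1990, and 3 rose and 3 fell in CFPAC-1. TLE4, a Groucho-type corepressor recruited by HES proteins, was 6.20 to 7.28 RPKM in SW1990 negative and 0.951 to 1.27 RPKM in SW1990 positive samples. With a fall of 2.52 (SE 0.15, limma adjusted p = 3.56e-07) it had the largest change of the 60 genes in SW1990, while in CFPAC-1 its change was 0.27 (adjusted p = 0.191). TLE2, of the same family, was at 6 to 20 reads in CFPAC-1 negative samples and 2 to 3 reads in CFPAC-1 positive samples. Its mean in negative samples was 3.69 times the level that 3 reads in each positive library would give. With so few reads this is not a lower limit of the change.

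Of 12 further regulators of the pathway, 4 rose and 4 fell in SW1990, and 1 rose and 4 fell in CFPAC-1. The one that rose in CFPAC-1 was NRARP, a Notch target that feeds back on the Notch complex. It was 3.23 to 3.84 RPKM in CFPAC-1 negative and 7.87 to 9.49 RPKM in CFPAC-1 positive samples, and rose by 1.28 (SE 0.15, limma adjusted p = 9.52e-05). In SW1990 it was 10.1 to 12.2 and 7.12 to 10.5 RPKM, a change of -0.34 that was not called (adjusted p = 0.113). DTX1, of the Deltex family of E3 ligases, was 2.42 to 2.80 RPKM in SW1990 negative and 0.314 to 0.735 RPKM in SW1990 positive samples, and fell by 2.06 (SE 0.31, limma adjusted p = 0.000348). NUMBL, a relative of the Notch inhibitor NUMB, was 18.9 to 20.0 RPKM and 8.26 to 9.46 RPKM in these groups, and fell by 1.12 (SE 0.16, limma adjusted p = 0.000221). DTX4, also of the Deltex family, was 10.8 to 21.2 RPKM in SW1990 negative and 33.1 to 42.7 RPKM in SW1990 positive samples, and rose by 1.32 (limma adjusted p = 0.00101). In CFPAC-1 DTX4 was 21.7 to 30.4 RPKM in negative and 10.2 to 15.3 RPKM in positive samples, and fell by 1.08 (limma adjusted p = 0.00361), so that the changes differed by 2.40 (SE 0.33, limma adjusted p = 0.000277).

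A list of 9 genes held other HES and HEY genes and the related BHLHE40 and BHLHE41, and 6 of these were fitted. None rose and 2 fell in SW1990, HEYL and BHLHE40. In CFPAC-1, 2 rose, HES2 and HES6, and 1 fell, BHLHE40. HEYL, a close relative of HEY1, was 1.66 to 2.12 RPKM in SW1990 negative and 0.384 to 0.551 RPKM in SW1990 positive samples, and fell by 1.85 (SE 0.28, limma adjusted p = 0.000323). In CFPAC-1 HEYL was at 2 to 8 reads in every sample, with a change of -0.06 (95% interval -0.67 to 0.54). Among the 4 other receptors and ligands, 3 were fitted, of which 1 fell in SW1990 and 1 rose in CFPAC-1.

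**Figure D4:**
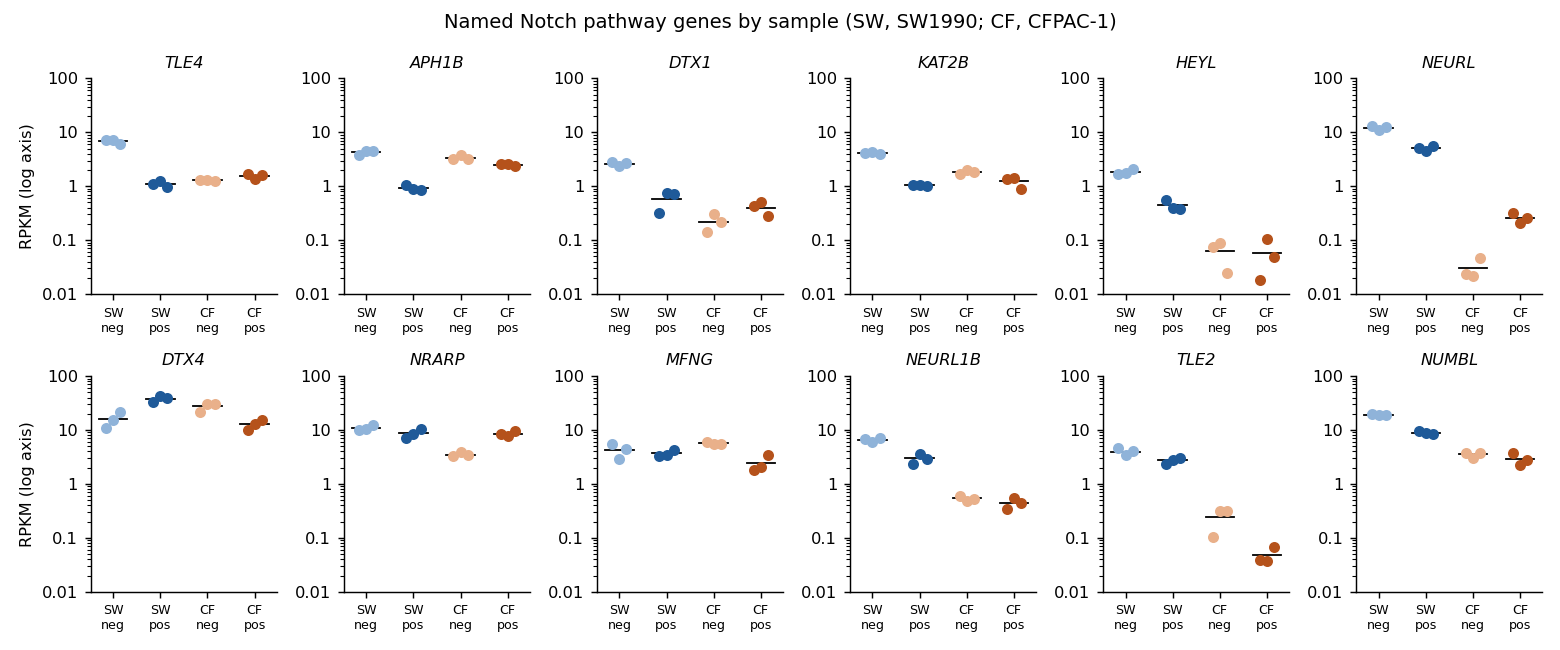
RPKM on a log axis of the 12 named pathway genes in each sample; points are samples and lines are group means (n = 3). TLE4, APH1B, DTX1, KAT2B, HEYL, NEURL, NEURL1B, NUMBL and TLE2 are lower in SW1990 positive than in SW1990 negative samples without overlap. TLE2 was not called in SW1990. DTX4 moves in opposite directions in the 2 lines. The 12 genes were chosen by their changes in these same samples.

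Between the lines, 49 of the 60 pathway genes were called in negative cells and 41 in positive cells, 81.7% and 68.3% against 68.9% and 62.3% of all genes. The largest differences in negative cells were those of NEURL (6.54), TLE2 (3.64) and HEYL (3.59), all higher in SW1990. In positive cells they were those of TLE2 (4.25), NEURL (3.86) and DLK2 (3.07), also higher in SW1990, each with a limma adjusted p of 7.49e-06 or less. The mean of TLE2 in SW1990 positive cells was 41.5 times the level that 3 reads would give in each CFPAC-1 positive library. DLK2, a ligand-like protein of the Delta family, was 7.25 to 9.96 RPKM in SW1990 positive and 0.498 to 1.59 RPKM in CFPAC-1 positive samples.

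**Figure D5:**
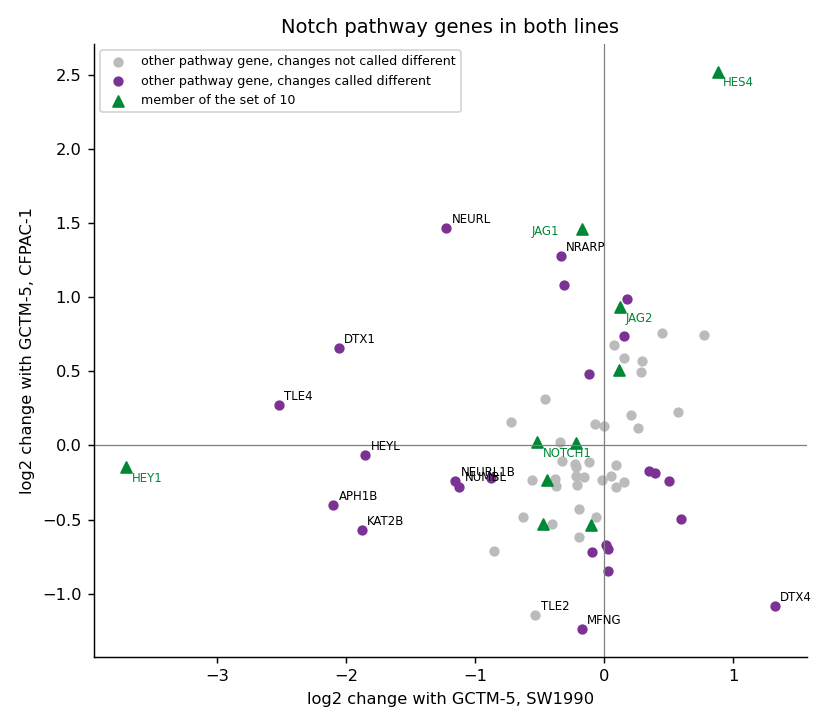
Log2 change with GCTM-5 in SW1990 (horizontal) and CFPAC-1 (vertical) for the 60 other pathway genes (circles) and the 10 receptors, ligands and targets (triangles); purple marks other pathway genes whose changes were called different between lines. NEURL and DTX4 lie in opposite quadrants, HEY1 and TLE4 lie far to the left near 0 on the vertical axis, and JAG1 and NRARP lie high near 0 on the horizontal axis.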

How the data were processed

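RNA-seq of 12 sorted samples was used. Per the labels and the study's methods, the authors aligned reads to hg19/GRCh37 and deposited RPKM values made with QuasR from gene counts normalized for library size and gene length. The kit differs between these sources, and the annotation and use of strand are not given in the sources used here. Whole reads (to within 0.01) were recovered from the RPKM for all 19654 genes above 0, with a library total for each sample. These served for read numbers and voom.

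Genes with a mean of at least 0.1 RPKM (16236) were fitted in R 4.3.3 with limma 3.58.1 on log2(RPKM + 0.1), with 4 group means and eBayes with a trend, tested 2-sided. The study's TCC was not used. The fit was tested on simulated data. The rest was done in Python 3.11.15 (numba 0.67.0, numpy 2.4.6, pandas 2.3.3), with figures drawn in matplotlib 3.10.9. Gene positions are those of GENCODE 44 on GRCh37.

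The members, lists and tests were chosen with earlier results of these data known. Named were all 10 members, the 12 largest changes among other pathway genes over 2-fold changed and called in either line, the 3 largest between lines, and the gene nearest in pattern to each member with a mean of at least 1 RPKM. Alternatives were pseudocounts of 1 and 0.01, other filters, 2 scalings, the samples of a comparison alone, a replicate block, no trend, voom and each sample left out. Removal of the GC trend, for the 85.4% of genes with a GC value, was added after seeing the data.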

Additional observations from a re-analysis of the deposited data

Results flagged for a closer look

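The change with GCTM-5 differed between the lines for 4 of the 10 genes, by limma's test of the difference of changes. Of all genes, 26.9% were called in this test (17.8% as negative differences), so the count is near the background. The SW1990 change minus the CFPAC-1 change was -0.54 for NOTCH1 (adjusted p = 0.0166), -1.63 for JAG1 (adjusted p = 0.000164), -0.81 for JAG2 (adjusted p = 0.018) and -3.56 for HEY1 (adjusted p = 0.000859). For HEY1 and NOTCH1 the change was called in SW1990 and not in CFPAC-1, and for JAG1 and JAG2 it was called in CFPAC-1 and not in SW1990. The NOTCH1 difference was not called with median centring (-0.39, adjusted p = 0.0697) or quantile normalization (-0.39, adjusted p = 0.0658), while those of JAG1, JAG2 and HEY1 were called under every alternative tried.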

How the results depend on the processing

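The 50 log2 changes of the 10 genes in 5 comparisons were computed under every alternative. The 25 called changes kept direction and call in 546 of 571 cases, lost the call in 24 and turned in 1, and the other 25 stayed uncalled with the same sign in 516 of 564, were called in 15 and turned in 33. The 1 called change that turned was that of NOTCH1 between negative cells, at -0.027 with the GC trend removed. The cause was not tested.

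Uncalled changes turned as follows. For positive against negative CFPAC-1 cells, NOTCH1 was -0.080 with median centring and -0.084 with quantile normalization, and DLL1 was -0.086 and -0.096 with these and -0.021 with the GC trend removed. With quantile normalization DLL1 was 0.012 in SW1990 and 0.11 for the difference of changes. Between positive cells of the lines, HEY1 was 0.013 with a pseudocount of 1 and 0.0085 with the GC trend removed, and between negative cells HES4 was -0.057 with the GC trend removed. With each sample left out in turn, the range was -0.014 to 0.055 for NOTCH1, -0.062 to 0.099 for DLL1, -0.66 to 0.061 for DLL4 and -0.33 to 0.14 for HEY1 in CFPAC-1. It was -0.083 to 0.47 for NOTCH3 and -0.42 to 0.082 for DLL1 in SW1990. For the difference of changes it was -0.094 to 0.23 for NOTCH2, -0.43 to 0.068 for DLL1 and -0.51 to 0.22 for DLL4, and between positive cells -0.60 to 0.27 for HEY1 and -1.31 to 0.39 for HES4.

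The count of the 10 genes called in CFPAC-1 was 5, 3 with the samples of that line alone, and 3 to 6 with a sample left out. It was 3 without CFPAC-1 negative replicate 2 or without CFPAC-1 positive replicate 1. The count of other pathway genes called in SW1990 was 23, and 15 to 26 with a sample left out. The other 8 counts stayed within 1.5 times of their value under each alternative.

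Same-numbered samples did not deviate together throughout (correlations of 0.185, 0.016 and 0.116 in SW1990 and -0.02, 0.001 and -0.059 in CFPAC-1), so numbers were not taken to pair samples. With a replicate block, 2 of the 10 genes were called in SW1990 and 5 in CFPAC-1, and 20 and 26 other pathway genes. NOTCH2 in SW1990 lost its call with the block (-0.48, adjusted p = 0.0582), and no other call of the 10 genes changed. Depth gives the least precision where every sample of a group held at most 45 reads. Among the fitted genes this was so for DLL3, DLL4 and HES7, and for HEY1, HEYL and DTX1 outside SW1990 negative cells. It was also so for NEURL and TLE2 in CFPAC-1 and for DLK2 in CFPAC-1 negative cells.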

Other observations

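Of the other pathway genes, 8 were called in both lines, which is 34.8% of the 23 called in SW1990 and 33.3% of the 24 called in CFPAC-1. Over all genes fitted, 1990 were called in both, 43.4% of the SW1990 calls and 33.6% of the CFPAC-1 calls. Named after their values were seen, 5 of the 8 moved in the same direction. KAT2B (-1.88 in SW1990 and -0.57 in CFPAC-1), APH1B (-2.10 and -0.40), the corepressor TLE3 (-0.41 and -0.53) and the hypoxia-responsive repressor BHLHE40 (-0.86 and -0.71) fell in both, and SNW1, a cofactor of the nuclear complex (0.20 and 0.21), rose in both. The 3 that moved in opposite directions were NEURL (-1.22 and 1.46), DTX2 (0.59 and -0.50) and DTX4 (1.32 and -1.08).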
